A study of Mus musculus with 6 samples.

Results

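Receptors through which cells sense glutamate, GABA, glycine and acetylcholine were examined in primary mouse astrocytes, leaving out the AMPA-type glutamate receptors. The set comprised every gene measured by its own probe set whose symbol names an NMDA, kainate, delta or metabotropic glutamate receptor, a GABA-A or GABA-B receptor, a glycine receptor, or a nicotinic or muscarinic acetylcholine receptor. It held 63 of the 19926 genes measured. The rule for membership reads gene symbols and no measured value, and the set was chosen with earlier results of these data known. Astrocytes of the C57BL/6J strain, grown in culture, received 50 ng/mL of TNF (tumour necrosis factor, an inflammatory cytokine) and were taken after 24 h. Control cultures were labelled with the same time of 24 h. Each group had 3 samples, with 1 Affymetrix Mouse Gene 1.0 ST array per sample, numbered 1 to 3 in both groups. Nothing in the labels says that the numbered samples came from different animals or cultures; p-values therefore reflect the spread among these arrays, which could be technical.

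Glutamate, GABA, glycine and acetylcholine act on 2 kinds of receptor. Ionotropic receptors are channels assembled from several subunits, and the genes measured here encode the single subunits. GABA-A and glycine receptors pass chloride, NMDA and kainate receptors pass cations, and nicotinic receptors are cation channels opened by acetylcholine. Metabotropic glutamate, GABA-B and muscarinic receptors signal through G proteins. Astrocytes are known to carry GABA-A receptors and metabotropic glutamate receptors, with which they respond to transmitter released by nearby neurons.

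Values are log2 array signals, and each difference is TNF minus control on the log2 scale. Large folds are compressed on arrays, so a fold given here is likely smaller than the transcript ratio. The table held no detection calls. As a guide to which signals may be background, the 95th percentile of the mean signals of 1194 olfactory and vomeronasal receptor genes was taken, which was 6.35. Probes differ in affinity, so a gene below this level may still be expressed. Of the receptor genes 33 lay above it and 30 at or below it, against 71.3% of all genes above it. The GABA-A family had 5 of 16 genes above this level, the nicotinic family 7 of 16, and the glycine receptor family 1 of 5. The metabotropic family had 5 of 7, the NMDA family 5 of 6 and the kainate family 4 of 5 genes above it. Replicate 3 stood apart on the arrays of both groups, with lower quartiles over all genes of 6.33 with TNF and 6.27 in control against 6.01 to 6.09 on the other arrays. Among the 30 dim receptor genes, 18 had their highest signal of each group in replicate 3.

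Some of these receptor genes fell with TNF and none rose. By limma with Benjamini-Hochberg adjustment over all genes, 7 of the 63 fell at an adjusted p under 0.05, which is 11.1% of them, against 3.33% of all genes called lower. No member was called higher, against 3.87% of all genes, while 14 members were lower (9.73% of all genes were) and 0 higher with an unadjusted p under 0.05. The 7 were the GABA-A subunits Gabrb1, Gabra4 and Gabrg1, the glycine receptor subunit Glrb, the NMDA subunit Grin2b, the kainate subunit Grik3 and the nicotinic subunit Chrna7. TNF and control samples of the same number deviated together, and with the replicate number as a block 15 members were lower (23.8% of them, against 11.8% of all genes) and 0 higher (9.73% of all genes were). The block leaves every difference as it was. In 16 members all 3 TNF values lay below all 3 control values, 25.4% of them against 11.7% of all genes, and in none was it the other way round, against 12.3% of all genes. In 30 members TNF was the lower sample of all 3 pairs, 47.6% of them against 26.9% of all genes. In 2 members it was the higher one of all 3, against 25.7% of all genes. Of the 33 members above the background level described before, 6 were called lower without the block and 12 with it, where 4.52% and 15.6% of all genes above that level were. Fewer members were called lower when 1 array was left out, from 4 without TNF replicate 2 to 6 without TNF replicate 3, control replicate 2 or control replicate 3.

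**Figure D1:**
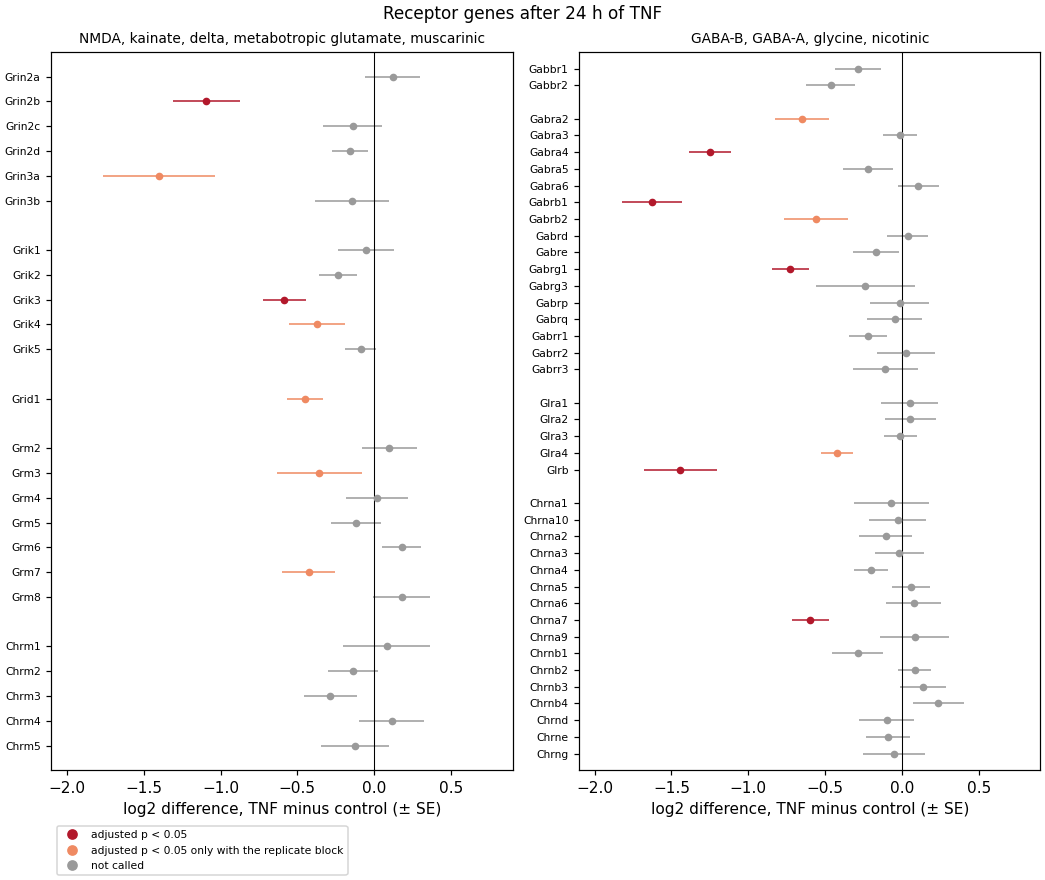
Log2 difference (TNF minus control, with SE bars of the fit without a block, n = 3 per group) of all 63 receptor genes by family, left panel glutamate and muscarinic receptors, right panel GABA, glycine and nicotinic receptors. The 7 genes called without a block (dark red) and the 8 called only with it (orange) all lie below 0, from Gabrb1 at -1.63 to Grm3 at -0.36.

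Over the whole set the shift was small. The median difference over the 63 members was -0.11, against -0.0033 over all genes, and it was -0.24 over the 33 members above the background level and -0.038 over the 30 at or below it. Without TNF replicate 1 the median over all members was 0.010, without TNF replicate 3 it was -0.22, without control replicate 3 it was -0.026 and without both arrays of replicate 1 it was -0.044. Differences were negative in 45 members and positive in 18, and the largest positive one was 0.24, in the nicotinic subunit gene Chrnb4.

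GABA-A receptor subunits carried the largest decrease. In this receptor alpha and beta subunits form the site where GABA binds, and a gamma subunit next to an alpha subunit forms the site of benzodiazepines. Of 16 measured subunits 3 fell and none rose, where 3.33% of all genes fell and 3.87% rose. With the block 5 were lower, where 11.8% of all genes were, and the family's median difference was -0.19. Gabrb1, which encodes the beta1 subunit, had signals of 8.69, 8.13 and 8.69 in TNF replicates 1, 2 and 3, against 10.27, 9.85 and 10.27 in control replicates 1, 2 and 3. Every TNF value lay more than 1 log2 unit below the lowest control value, and replicate 2 was the lowest in both groups. The means were 8.50 ± 0.33 with TNF and 10.13 ± 0.24 in control (SD, n = 3 each), a difference of -1.63 (SE 0.19) or 3.09-fold lower (limma adjusted p = 0.00272). The 3 pairs differed by -1.58, -1.73 and -1.58.

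Gabra4, the gene of the alpha4 subunit, which is known in the brain for receptors outside synapses, had signals of 7.46, 7.10 and 7.26 with TNF, against 8.59, 8.35 and 8.62 in control. The groups were far apart relative to the spread within each. The means were 7.27 ± 0.18 with TNF and 8.52 ± 0.15 in control (SD, n = 3 each), a difference of -1.25 (SE 0.14) or 2.38-fold lower (limma adjusted p = 0.00166). Gabrg1, the gene of the gamma1 subunit, had 4.53, 4.78 and 4.81 with TNF, against 5.45, 5.47 and 5.38 in control. Its signals lay below the background level in both groups, yet the groups did not overlap and the difference was -0.73 (SE 0.12, limma adjusted p = 0.0104). Gabra2, the gene of the alpha2 subunit, had 5.20, 5.61 and 5.48 with TNF, against 5.76, 6.34 and 6.14 in control, also below the background level. Its difference of -0.65 (SE 0.18) did not pass without the block (limma adjusted p = 0.0753) and passed with it (adjusted p = 0.00143). The calls of Gabrb1, Gabra4 and Gabrg1 were made in all 6 fits without 1 array, with a highest adjusted p of 0.0182, 0.0129 and 0.0499, each without control replicate 1. Without both arrays of replicate 1, 2 or 3, Gabra4 was called each time, while Gabrb1 was not called without replicate 1 (adjusted p = 0.0545) and Gabrg1 not without replicate 1 (0.133) or replicate 2 (0.117).

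These subunit genes are neighbours in the genome. In the RefSeq gene table of the mouse (GRCm38.p6) Gabrg1, Gabra2, Gabra4 and Gabrb1 follow one another on chromosome 5, with Cox7b2 as the 1 other measured gene among them. Of these 4 receptor genes 3 were called lower without the block and all 4 with it, against 3.33% and 11.8% of all genes. This grouping was looked at after the values were seen. The 7 other genes of the stretch, which are Cox7b2 and the 3 nearest measured genes on either side, gave 0 calls without the block by limma, with 1 at an unadjusted p under 0.05, and differed by -0.46 to 0.06. In 4 of these 7, which are Guf1, Gnpda2, Cox7b2 and Atp10d, all TNF values lay below all control values, against 11.7% of all genes. In 5 of the 7 TNF was the lower sample of all 3 pairs, against 26.9% of all genes. With the block 1 of the 7 was called, Gnpda2, a glucosamine-6-phosphate deaminase, at -0.46 (adjusted p = 0.00891). Cox7b2, which lies between Gabra2 and Gabra4, differed by -0.10 (SE 0.10) and had a mean signal of 4.48.

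**Figure D2:**
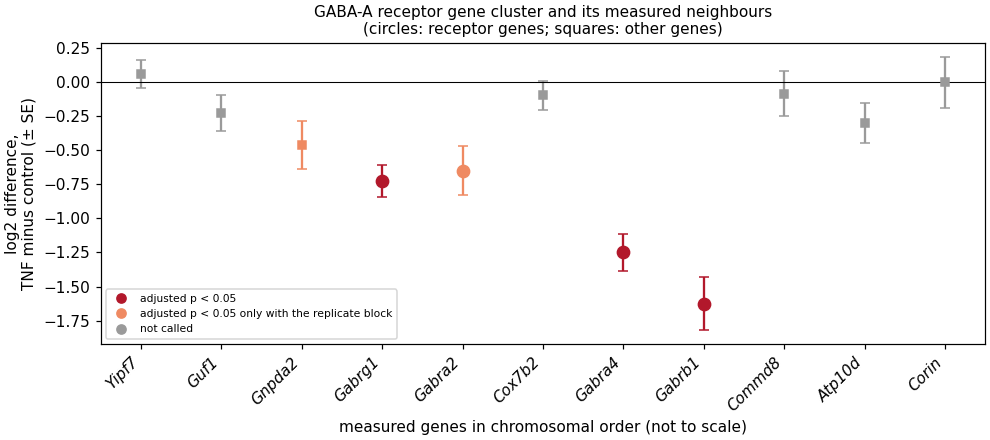
Log2 difference (TNF minus control, with SE bars, n = 3 per group) of the 4 GABA-A receptor genes on chromosome 5 (circles) and 7 measured neighbours (squares), in their order along the chromosome and not to scale. The receptor genes lie between -0.65 and -1.63 and the neighbours between -0.46 and 0.06.

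GABA-A genes at other places gave no call without the block. On chromosome 11 Gabrb2, the gene of the beta2 subunit, differed by -0.56 and its neighbour Gabra6 by 0.11. On chromosome 7 Gabrg3 and Gabra5 differed by -0.24 and -0.22, and on the X chromosome Gabre, Gabra3 and Gabrq differed by -0.17 to -0.02. The 3 genes on chromosome 4, which are Gabrd and the rho subunit genes Gabrr1 and Gabrr2, differed by -0.22 to 0.04, Gabrr3 on chromosome 16 by -0.11 and Gabrp on chromosome 11 by -0.02. Of these 12 genes, Gabrb2 alone was called with the block (limma adjusted p = 0.188 without it, and 0.00917 with it), and it was the 1 gene among them with an unadjusted p under 0.05. Gabrb2 had 6.09, 6.63 and 6.59 with TNF, against 6.74, 7.36 and 6.88 in control. It had 3 probe sets, of which the one of highest mean is given. With its probe set of highest variance the difference was -0.78 (limma adjusted p = 0.259 without the block). Of these genes Gabrb2, Gabrg3 and Gabrr2 lay above the background level, which limits what could be detected in the other 9. That the genes on chromosome 5 differed from the other GABA-A genes was not tested.

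The start regions of the 4 neighbouring genes are shown because 3 of them were called lower and all 4 were with the block. Each sequence runs 5′ to 3′ on the strand of its gene, from 250 bases before the annotated start in lower case to 50 bases from the start on in capitals (RefSeq, GRCm38.p6). Gabrg1 is at chr5:70842568-70842867 on the minus strand, Gabra2 at chr5:71095800-71096099 on the minus strand, Gabra4 at chr5:71658259-71658558 on the minus strand, and the first of 2 annotated starts of Gabrb1 at chr5:71657671-71657970 on the plus strand.
Gabrg1: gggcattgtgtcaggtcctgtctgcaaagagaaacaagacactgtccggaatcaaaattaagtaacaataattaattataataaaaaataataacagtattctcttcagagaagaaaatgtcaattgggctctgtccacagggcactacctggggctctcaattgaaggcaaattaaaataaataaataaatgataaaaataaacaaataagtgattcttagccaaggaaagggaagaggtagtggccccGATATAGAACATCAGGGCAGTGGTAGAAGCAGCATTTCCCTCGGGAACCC
Gabra2: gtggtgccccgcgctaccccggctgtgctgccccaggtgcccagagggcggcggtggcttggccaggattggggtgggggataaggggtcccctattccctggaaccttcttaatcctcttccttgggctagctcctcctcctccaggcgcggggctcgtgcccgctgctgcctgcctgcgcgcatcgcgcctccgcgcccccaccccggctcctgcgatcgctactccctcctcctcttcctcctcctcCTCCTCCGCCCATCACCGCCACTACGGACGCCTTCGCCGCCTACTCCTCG
Gabra4: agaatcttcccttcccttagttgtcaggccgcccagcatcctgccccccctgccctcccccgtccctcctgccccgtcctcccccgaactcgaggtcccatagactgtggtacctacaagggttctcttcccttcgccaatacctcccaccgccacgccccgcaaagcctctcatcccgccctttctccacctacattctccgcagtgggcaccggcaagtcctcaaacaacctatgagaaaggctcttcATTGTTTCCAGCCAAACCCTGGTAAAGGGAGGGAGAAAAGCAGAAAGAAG
Gabrb1: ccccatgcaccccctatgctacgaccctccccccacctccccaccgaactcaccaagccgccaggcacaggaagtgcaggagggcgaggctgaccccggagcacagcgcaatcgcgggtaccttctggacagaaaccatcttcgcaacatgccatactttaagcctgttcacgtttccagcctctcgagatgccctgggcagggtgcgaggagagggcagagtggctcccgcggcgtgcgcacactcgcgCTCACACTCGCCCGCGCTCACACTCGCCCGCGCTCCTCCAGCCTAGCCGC

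Gabra4 and Gabrb1, with the largest decreases of the family, are annotated head to head. Their starts lie 387 bases apart on opposite strands, and the start of each falls within the first part of the other, so that both transcripts begin in the same stretch of DNA. A second annotated start of Gabrb1 lies 41.6 kb from the start of Gabra4. The start regions differ in composition: the stretch of Gabrg1 has 38.3% G and C and 3 CG dinucleotides, while those of Gabra2, Gabra4 and Gabrb1 have 70.0%, 58.7% and 66.0% with 25, 12 and 25 CG dinucleotides. Over 32851 mouse start regions of the same length the medians were 52.7% and 7. Of 5 motifs searched on both strands, those of NF-kB (by its usual 10-base consensus), AP-1 (TGANTCA) and the TATA box (TATAAA) had no match in the 4 stretches. The STAT motif TTCNNNGAA matched once in the 4 stretches, in Gabrg1, at position -146 from the start, and 8.30% of all start regions hold it. The half-site of nuclear factor I (TTGGC) matched in Gabrg1, Gabra2 and Gabra4, as in 46.7% of all start regions. In the region of the second start of Gabrb1, not printed, the STAT motif matched at position 37 and the half-site of nuclear factor I at -173, with no match of the other 3 motifs. The other shares were 8.46% for NF-kB, 7.81% for AP-1 and 13.6% for the TATA box. A match is a run of letters and not evidence of binding, and no match says only that the letters are not in this window.

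Among glycine receptor genes the beta subunit fell. Glrb encodes the subunit that ties the receptor to the scaffold protein gephyrin and that joins alpha subunits in the channel. Its signals were 8.27, 8.09 and 7.56 in TNF replicates 1, 2 and 3, against 9.34, 9.82 and 9.09 in control replicates 1, 2 and 3. All TNF values lay below all control values, and replicate 3 was the lowest in both groups. The means were 7.97 ± 0.37 with TNF and 9.42 ± 0.37 in control (SD, n = 3 each), a difference of -1.44 (SE 0.24) or 2.72-fold lower (limma adjusted p = 0.0112). The call was made in all 6 fits without 1 array (at most 0.043 as adjusted p, reached without control replicate 1), and it was not made without both arrays of replicate 1 (adjusted p = 0.0895) or of replicate 2 (0.0874).

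The alpha subunits, which bind glycine, all lay at or below the background level. Glra1, Glra2 and Glra3 differed by 0.05, 0.05 and -0.01, and none of them was called in either fit. Glra4 had 5.86, 5.82 and 5.96 with TNF, against 6.34, 6.23 and 6.34 in control. Its groups did not overlap, and the difference of -0.42 (SE 0.10) had a limma adjusted p of 0.0529, and of 0.0084 with the block. Glrb was thus the one member of its family above the background level.

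**Figure D3:**
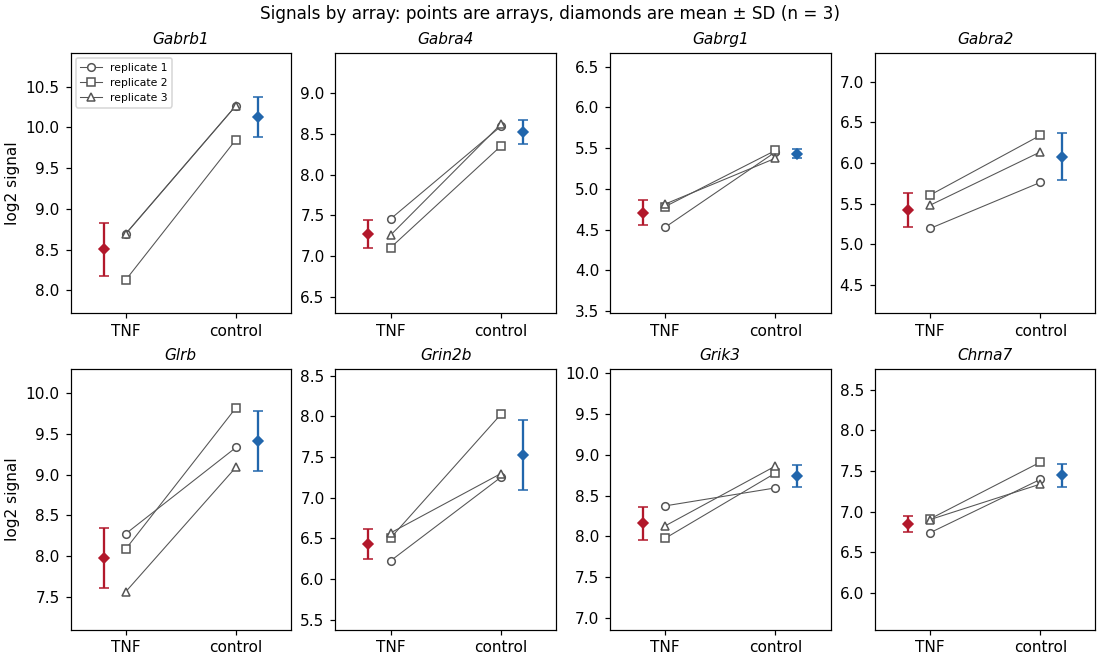
Log2 signals of 8 receptor genes on each array (open symbols, TNF left and control right, lines join samples of the same replicate number) with the group mean ± SD (diamonds, n = 3 per group). Each panel spans the same number of log2 units. All lines slope from a lower TNF value to a higher control value, with Gabrb1 at 8.50 against 10.13 and Chrna7 at 6.85 against 7.45 on average.

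GABA-B receptors, which signal through G proteins and consist of both subunits together, did not pass in either fit, with 1 of the 2 genes at an unadjusted p under 0.05. Gabbr1, whose product binds GABA, had 8.79, 8.80 and 9.00 with TNF, against 8.95, 9.07 and 9.43 in control. It was lower in each pair, but the groups overlapped, and the difference was -0.29 (SE 0.15, limma adjusted p = 0.387, and 0.0558 with the block). Without control replicate 3 it was -0.145. Gabbr2, whose product couples to the G protein, had 6.49, 6.46 and 6.68 with TNF, against 7.12, 7.22 and 6.69 in control. In replicate 3 the TNF and control values were nearly the same, and the difference over all samples was -0.46 (SE 0.16, limma adjusted p = 0.154). It was called lower without both arrays of replicate 3 (adjusted p = 0.0399) and with array weights (0.0325).

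NMDA receptor genes fell in 1 of 6 members and none rose, where 3.33% of all genes fell. With the block 2 were lower, where 11.8% of all genes were. NMDA receptors need the subunit GluN1, not analysed here, beside GluN2 or GluN3 subunits. Grin2b, the gene of GluN2B, the GluN2 subunit typical of the immature brain, had 6.22, 6.50 and 6.57 with TNF, against 7.25, 8.02 and 7.30 in control. The highest TNF value lay below the lowest control value, and control replicate 2 was the highest of all. The TNF values lay near the background level of 6.35. The means were 6.43 ± 0.18 with TNF and 7.52 ± 0.43 in control (SD, n = 3 each), a difference of -1.09 (SE 0.22) or 2.13-fold lower (limma adjusted p = 0.0236). The call was lost without TNF replicate 1 (adjusted p = 0.0801), without TNF replicate 2 (0.0652), and without both arrays of replicate 1 (0.144), replicate 2 (0.0875) or replicate 3 (0.0973).

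Grin3a, the gene of GluN3A, a subunit that lowers calcium entry, had 6.58, 6.30 and 6.40 with TNF, against 7.65, 8.73 and 7.10 in control. The TNF values lay close together, near the background level of 6.35, and the control values spread over more than 1 log2 unit. The difference was -1.40 (SE 0.36), with a limma adjusted p of 0.0635, and of 0.0131 with the block. It was called lower without control replicate 2 (difference -0.95, adjusted p = 0.043) and without control replicate 3 (-1.76, 0.0231), and not without both arrays of replicate 2 (-0.89, 0.148). The other 4 NMDA genes, Grin2a, Grin2c, Grin2d and Grin3b, differed by -0.16 to 0.12 and were called in neither fit. By mean signal over all arrays, Grin2a alone of the 6 lay below the background level.

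Kainate receptor genes fell in 1 of 5 members and none rose, where 3.33% of all genes fell. With the block 2 were lower, where 11.8% of all genes were. Grik3, the gene of GluK3, had 8.37, 7.97 and 8.13 with TNF, against 8.59, 8.78 and 8.86 in control. The groups did not overlap, but the 3 pairs differed unevenly, by -0.22, -0.80 and -0.74. The means were 8.16 ± 0.20 with TNF and 8.74 ± 0.14 in control (SD, n = 3 each), a difference of -0.59 (SE 0.14) or 1.5-fold lower (limma adjusted p = 0.0465). This call was kept in 1 of the 6 fits without 1 array, the one without TNF replicate 1. It was lost in the others (highest adjusted p = 0.160, without TNF replicate 2), in all 3 fits without a replicate number (0.0928 to 0.358) and with arrays centred on their medians (0.058).

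Grik4, the gene of the accessory subunit GluK4, had 7.74, 7.16 and 7.64 with TNF, against 8.04, 7.65 and 7.97 in control. The groups overlapped, while each pair was lower with TNF, and the difference of -0.37 (SE 0.18) had a limma adjusted p of 0.35, and of 0.0179 with the block. Without TNF replicate 2 the difference was -0.19. Grik5, which encodes the related accessory subunit GluK5, differed by -0.09 (SE 0.10), Grik2 by -0.24 and Grik1 by -0.05, the last at a signal below the background level. Grid1, the gene of the delta receptor GluD1, which binds cerebellins at synapses, had 7.47, 7.39 and 7.32 with TNF, against 7.88, 7.96 and 7.67 in control. Its groups did not overlap, and the difference of -0.45 (SE 0.12) had a limma adjusted p of 0.0667, and of 0.00874 with the block.

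Metabotropic glutamate receptors gave 0 calls in 7 members by limma without the block, where 3.33% of all genes were called lower. With an unadjusted p under 0.05, 1 member was lower, against 9.73% of all genes. With the block 2 were lower, against 11.8% of all genes. Their differences ran from -0.43 to 0.18. Grm3 and Grm5 are the members best known from astrocytes, Grm5 above all in young animals, and they signal through opposite routes, Grm3 by lowering cyclic AMP and Grm5 by releasing calcium from stores. Grm3 had 6.04, 6.08 and 6.62 with TNF, against 6.28, 6.32 and 7.21 in control. Replicate 3 was the highest of each group and the groups overlapped. The difference was -0.36 (SE 0.27, limma adjusted p = 0.625), and with the block Grm3 was called lower (adjusted p = 0.038). The difference moved with single arrays, and was -0.055 without control replicate 3 and -0.54 without TNF replicate 3. Grm5 had 5.75, 6.08 and 6.29 with TNF, against 6.05, 6.09 and 6.34 in control, all below the background level, with a difference of -0.12 (SE 0.16, limma adjusted p = 0.852, and 0.426 with the block). It turned to 0.026 without TNF replicate 1 and was -0.24 without TNF replicate 3 and -0.032 without control replicate 3.

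Grm7, the gene of a receptor known mainly from nerve terminals, had 6.46, 6.81 and 6.65 with TNF, against 6.91, 7.42 and 6.87 in control. Its groups did not overlap, and the difference of -0.43 (SE 0.17) had a limma adjusted p of 0.236, and of 0.0193 with the block. Without control replicate 2 the difference was -0.25. Grm2, Grm4, Grm6 and Grm8 differed by 0.02 to 0.18 and were called in neither fit.

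Acetylcholine receptor genes fell in 1 of 21 members, the nicotinic Chrna7, where 3.33% of all genes fell. With the block Chrna7 was again the only one of them lower, where 11.8% of all genes were. Chrna7 encodes the alpha7 subunit, which forms channels on its own and is known for dampening cytokine release in macrophages. Its signals were 6.74, 6.91 and 6.90 with TNF, against 7.40, 7.61 and 7.34 in control. All TNF values lay below all control values. The means were 6.85 ± 0.10 with TNF and 7.45 ± 0.14 in control (SD, n = 3 each), a difference of -0.60 (SE 0.12) or 1.51-fold lower (limma adjusted p = 0.0238). The call was kept in 1 of the 6 fits without 1 array, the one without TNF replicate 3, and was lost in the other 5 (highest adjusted p = 0.0835, without control replicate 2) and in the 3 fits without a replicate number (0.0727 to 0.221).

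The other 15 nicotinic genes were called in neither fit. Chrna4 and Chrnb2, which form the common high-affinity receptor of the brain, differed by -0.20 (SE 0.11) and 0.08 (SE 0.11), and the muscle-type subunits Chrna1, Chrnb1, Chrnd, Chrne and Chrng by -0.29 to -0.05. Of the muscarinic genes, Chrm1, Chrm3 and Chrm5 encode receptors that release calcium from stores, and Chrm2 and Chrm4 those that lower cyclic AMP. None of the 5 was called in either limma fit, with 0 at an unadjusted p under 0.05, and their differences ran from -0.28 to 0.11. Chrm3 had 6.27, 6.53 and 6.52 with TNF, against 6.40, 7.04 and 6.74 in control, so that the groups overlapped and the difference was -0.28 (SE 0.17, limma adjusted p = 0.486). It was -0.13 without control replicate 2 and -0.45 without control replicate 1.

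Other genes of the same transmitter systems moved both ways. Among 20 scaffolds, auxiliary proteins and partners of glutamate receptors 2 rose and none fell without the block, where 3.87% of all genes rose and 3.33% fell. With it 2 were higher and 3 lower, the last being Camk2a, Shank2 and Fyn, against 9.73% and 11.8% of all genes. Dlg2, the gene of the synaptic scaffold PSD-93, had 7.34, 7.40 and 7.10 with TNF, against 6.13, 6.26 and 6.06 in control, a difference of 1.13 (SE 0.12) or 2.19-fold higher (limma adjusted p = 0.0018). The call was made in all 6 fits without 1 array and was lost without both arrays of replicate 1 (adjusted p = 0.0653). Dlg4, the gene of the scaffold PSD-95, which binds NMDA receptor tails, rose 1.68-fold with a difference of 0.75 (SE 0.13, limma adjusted p = 0.0148), and was not called without control replicate 1 (adjusted p = 0.0561) or without both arrays of replicate 1, 2 or 3 (0.155, 0.114 and 0.0527). The 2 scaffolds were thus higher while Grin2b was lower. Camk2a, the kinase that binds GluN2B, lay at -1.21 (SE 0.38) and passed with the block alone (limma adjusted p = 0.115 without it, and 0.0015 with it). Shank2, the gene of a scaffold of the postsynaptic density, lay at -0.54 and Fyn, the gene of a tyrosine kinase, at -0.44.

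In the GABA system 1 of 13 listed genes rose and 1 fell, where 3.87% of all genes rose and 3.33% fell. With the block 2 were higher, Nlgn2 and Gad1, and 1 was lower, against 9.73% and 11.8% of all genes. Gad1, a gene of GABA synthesis, differed by 0.55 (SE 0.31, limma adjusted p = 0.423, and 0.00792 with the block) and was higher with TNF in all 3 pairs. Abat, the transaminase that breaks GABA down, had 10.57, 10.72 and 10.78 with TNF, against 11.27, 11.20 and 11.37 in control, a difference of -0.59 (SE 0.11, limma adjusted p = 0.0194). Nlgn2, the gene of neuroligin-2, an adhesion protein of inhibitory synapses, rose 1.49-fold with a difference of 0.57 (SE 0.14, limma adjusted p = 0.0488). Gphn, the gene of gephyrin, which anchors GABA-A and glycine receptors, differed by 0.11 (SE 0.11). Abat was not called without TNF replicate 1, TNF replicate 2, control replicate 1 or control replicate 3 (highest adjusted p = 0.0773). The call of Nlgn2 was kept only in the fit without TNF replicate 1 (highest adjusted p = 0.171 in the other 5), and Nlgn2 was not called with all probe sets tested together (0.0514) or with the probe set of highest variance (0.0505). Without both arrays of a replicate number neither was called (adjusted p from 0.0682 to 0.215 for Abat and from 0.166 to 0.275 for Nlgn2).

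In the glycine system 1 of 6 listed genes rose and none fell, where 3.87% of all genes rose and 3.33% fell. With the block 1 was higher and 1, Gldc, was lower, against 9.73% and 11.8% of all genes. The gene that was higher in both fits was Slc6a9, the gene of the glycine transporter GlyT1 of astrocytes. Its signals were 9.82, 9.82 and 9.91 with TNF, against 9.09, 9.06 and 8.87 in control. The difference of 0.84 (SE 0.11) was 1.79-fold (limma adjusted p = 0.0041), and it was called in all 6 fits without 1 array, but not without both arrays of replicate 1 (adjusted p = 0.0715) or replicate 2 (0.0681). Of 15 genes of acetylcholine synthesis, breakdown and receptor partners none was called by limma, with 3 at an unadjusted p under 0.05. With the block 3 were higher and 1 lower, against 9.73% and 11.8% of all genes. Tmem35a, the gene of a chaperone of nicotinic receptors including the alpha7 type, lay at 0.60 (SE 0.18, limma adjusted p = 0.0976, and 0.00434 with the block). Of 9 genes of the Gq and calcium store route, Prkca, the gene of protein kinase C alpha, fell by 0.57 (SE 0.11, limma adjusted p = 0.0236), a call kept only without TNF replicate 1 among the 6 fits without 1 array (highest adjusted p = 0.0918) and in none without a replicate number (0.104 to 0.244). Without the block 1 gene of this list fell, against 3.33% of all genes. With it 1 was higher and 2 were lower, against 9.73% and 11.8% of all genes. Beside Prkca these were the calcium channel gene Itpr2 of astrocyte stores, at 0.40 (limma adjusted p = 0.089, and 0.011 with the block), and the phospholipase C gene Plcb1, at -0.49 (0.173, and 0.0135 with the block). The list medians were -0.022 for glutamate receptor partners, -0.030 for the GABA list, -0.048 for the glycine list, 0.073 for the acetylcholine list and -0.11 for the Gq list.

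**Figure D4:**
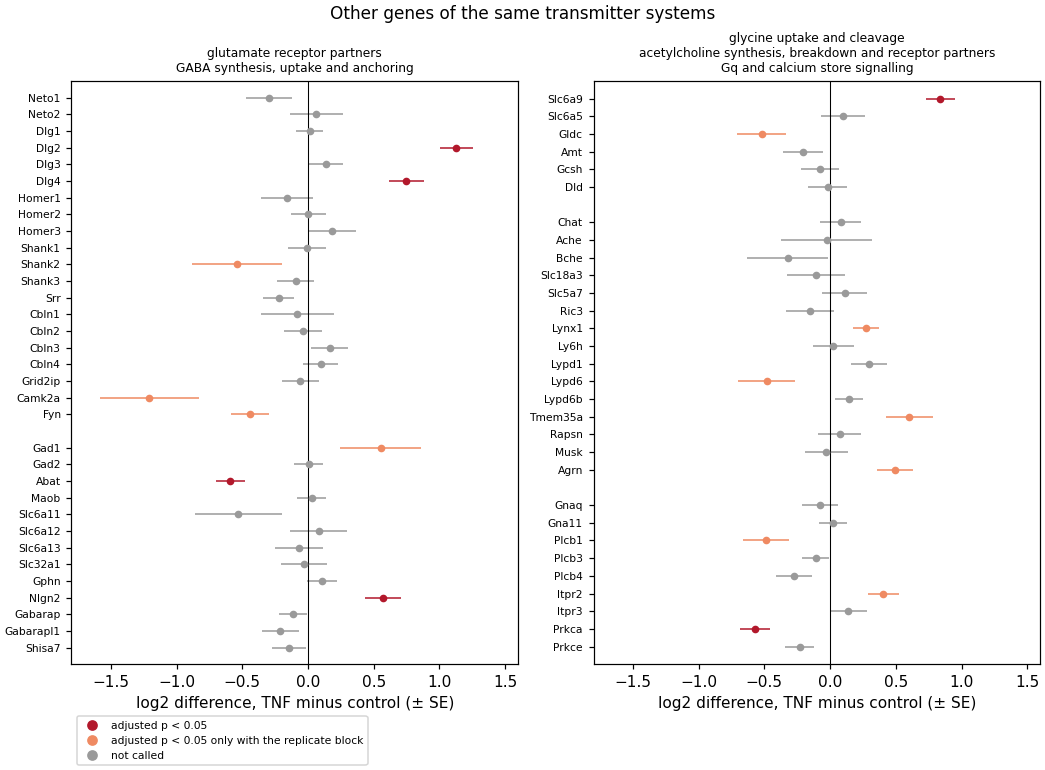
Log2 difference (TNF minus control, with SE bars, n = 3 per group) of 63 genes of the same transmitter systems in 5 lists, separated by gaps. Dlg2 at 1.13, Slc6a9 at 0.84, Dlg4 at 0.75 and Nlgn2 at 0.57 were called higher, and Abat at -0.59 and Prkca at -0.57 were called lower.

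Markers of other cells that such a culture could hold were read beside these results. In bulk samples fewer cells of a type and less RNA per cell cannot be told apart. Of 11 astrocyte markers 10 lay above the background level (all but Gjb6), and 3 fell, namely Aldoc, Gja1 and Glul, with list means of 10.13 to 10.41 with TNF and 10.47 to 10.77 in control. With the block 6 of the 11 were lower, 54.5% of them against 23.8% of the receptor genes and 11.8% of all genes, and 2 were higher. The 6 were Aldoc, Gja1, Glul, Sox9, Gfap and S100b, and the higher ones were Aqp4 and Slc1a2. Of 15 neuron markers 7 lay above it and 2 fell, Map2 at -1.22 and Syp at -0.62, with list means of 6.73 to 6.93 with TNF and 6.84 to 7.05 in control. Of the neuron markers Snap25, Slc17a6 and Slc17a7 lay below the background level, and Rbfox3 at a mean of 6.39 lay just above it. Others were brighter, with Gad1 at a mean of 8.22 and the highest mean of the list at 11.90. Of 7 oligodendrocyte precursor markers all lay above the level and 3 fell, Olig1 at -1.21, Ptprz1 at -1.08 and Olig2 at -0.60, with list means of 8.45 to 8.49 with TNF and 8.83 to 8.92 in control. The other 4, Pdgfra, Cspg4, Sox10 and Gpr17, differed by 0.14, -0.04, 0.07 and -0.12. The part of neurons, precursors and the lower astrocyte markers in the lower signals of Grin2b, Grin3a, Gabrb2 and the other receptor genes was not tested. None of the 7 oligodendrocyte or 12 microglia markers was called by limma (0 and 1 at an unadjusted p under 0.05). With the block 3 of the 12 microglia markers were higher, which are Itgam, Cd68 and C1qb, where 9.73% of all genes were, and 10 of the 12 differences were positive. The list means were 6.66 to 6.98 with TNF and 6.65 to 6.99 in control for oligodendrocytes, and 6.61 to 7.71 with TNF and 6.47 to 7.64 in control for microglia. Among 9 fibroblast and mural markers Acta2 fell by 0.96, with list means of 7.95 to 8.63 with TNF and 8.30 to 8.80 in control, and among 7 endothelial markers Kdr fell by 0.91 (6.15 to 6.65 with TNF and 6.33 to 6.62 in control). With the block 3 neuron markers were lower and 1, Gad1, was higher. In the same fit 3 precursor, 3 fibroblast and mural, 1 endothelial and 0 oligodendrocyte markers were lower with none higher. Over all genes 11.8% were lower and 9.73% higher in that fit, and 3.33% fell without the block. The calls of Gja1, Syp and Acta2 were made in 3 of the 6 fits without 1 array, and that of Olig2 in 1.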

How the data were processed

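The deposited table holds log2 signals of 35544 probe sets on 6 arrays, without missing values. RMA (background correction, normalization between arrays, summary of probes) and limma are named in the submitters' processing notes, without versions. Values between 2.04 and 14.37 give the log base. The number of arrays limits the precision. By the platform annotation 21777 probe sets had exactly 1 gene symbol and were used; 1621 had several and 12146 had none. The probe set of highest mean was kept for each of 19926 genes. Grid2ip, whose symbol names a partner and no receptor, was left out of the members. Start regions came from RefSeq, where 49 of 63 members had one.

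Differences were fitted in R 4.3.3 by limma 3.58.1, using lmFit and eBayes, two-sided and without a block, and called at a p under 0.05 after Benjamini-Hochberg adjustment over the 19926 genes. The fit was also run on simulated data in which each array was drawn independently, unlike the same-numbered arrays here, which deviated together. That run cannot show how either fit behaves with such pairing. Tables were made with Python 3.11.15 and pandas 2.3.3. The residual degrees of freedom were 4, and 2 with the replicate block. Pairing rests on the values: after subtraction of group means, same-numbered TNF and control arrays correlated at 0.55, 0.65 and 0.75 over genes. The members, the gene lists and the rule for named genes were chosen with earlier results of these data known. Given in full were members called without the block, those called only with it, the member of largest difference above the background level in families without a call, and Grm3, Grm5, Gabbr1, Gabbr2 and Glrb. From each gene list came up to 4 called genes, or the one of largest difference. Camk2a, Shank2, Fyn, Gad1, Gphn, Gldc, Itpr2, Plcb1 and the neighbours on chromosome 5 were named after their values were seen. Alternatives were other scalings, filters, variance models, probe sets, thresholds, the block, and arrays left out.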

Additional observations from a re-analysis of the deposited data

How the results depend on the processing

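Among the receptor genes, the count of 7 lower became 15 with the replicate block, 11 with array weights, 4 without genes below the median signal (9 members tested), 2 at an adjusted p under 0.01 and 4 at a log2 difference of at least 1. It ran from 1 to 6 without 1 array or 1 replicate number, and the 1 gene called in every such fit was Gabra4. No setting gave a member called higher. Without the block, quantile normalization added Glra4 and Grid1 to the calls, and array weights added Gabbr2, Glra4, Grid1 and Grin3a. A trend and robust variance added Grin3a. Leaving out genes below the background level added Grid1, with Gabrg1 not tested there. With arrays centred on their medians no member was added and Grik3 was lost. Leaving out both arrays of a number leaves 2 samples per group, a fit of fewer samples. The median over members was -0.37 without genes below the median signal and -0.24 without genes below the background level. With 1 array or number left out it ran from -0.22 (without TNF replicate 3) to 0.010, the reversed value, without TNF replicate 1. Grm5 also turned its sign there, at 0.026 (adjusted p = 0.971), and the cause was not tested.

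Over all genes the counts of 771 higher and 663 lower became 1938 and 2351 with the replicate block, 386 and 195 at an adjusted p under 0.01, and 365 and 200 at a log2 difference of at least 1. They ran from 273 to 669 higher and from 106 to 455 lower with arrays left out. In the 5 gene lists together, 4 higher and 2 lower became 9 and 8 with the replicate block, 7 higher with array weights, 2 and 0 at an adjusted p under 0.01, and 1 and 0 at a log2 difference of at least 1. They ran from 0 to 4 higher and from 0 to 1 lower with arrays left out. Above the 99th percentile of olfactory and vomeronasal receptor genes, in place of the 95th, lay 13 receptor genes in place of 33. Dim signals limit what can be said of the other members.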
